A study of Homo sapiens with 8 samples.

Results

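This account concerns the ETS1 binding regions that DU145 and PANC1 cells have in common. DU145 is an established human prostate cancer cell line, PANC1 is a pancreatic one, and the labels call both epithelial or epithelial-like. The regions were chosen by overlap of measured peaks: each is a peak of the first DU145 ETS1 list that shares at least 1 bp with a peak of the second DU145 ETS1 list and with a PANC1 ETS1 peak. There were 295 such regions, out of the 8183 DU145 ETS1 regions found in both DU145 lists, and the other 7888 serve as the comparison. Because the ETS1 lists chose the members, their ETS1 overlap is a description and no finding. The lists of JUND, GABPA, ELK4 and ELF1 in DU145 had no part in the choice.

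The data come from chromatin immunoprecipitation followed by sequencing (ChIP-seq), with no treatment named in the labels. The series has 8 samples, namely ETS1 in PANC1, then ETS1, JUND, GABPA, ELK4 and ELF1 in DU145, and an input of each line that was not used here. The ETS1 samples of both lines were made with the same catalogue antibody in different lots. One growth description is given for every sample: DMEM with serum and antibiotics, with puromycin where cells were selected, and it does not say which were. Each factor has 1 sample per line, so the tests below speak of listed regions alone and carry no measure of how cultures vary. The lists held 409 peaks for ETS1 in PANC1, 9984 and 9306 for ETS1 in DU145, 1308 for JUND, 2478 for GABPA, 337 for ELK4 and 256 for ELF1. They give positions and no signal, the number of reads behind them is unknown, and peak lists offer no marker genes with which to check either line. Positions are on the hg19 build, and no gene annotation or sequence of that build was used here, so regions are named by position.

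ETS factors bind DNA at sites with a GGAA core, and many family members occupy the same promoters. GABPA is an ETS factor that works with a separate partner subunit and is known at promoters of housekeeping genes. ELK4 is an ETS factor that binds beside serum response factor, and ELF1 belongs to another branch of the family. JUND is a subunit of AP-1, the dimeric factor that pairs JUN and FOS proteins. Composite sites for ETS and AP-1 proteins are known as elements that respond to RAS/ERK signalling.

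Shared regions held JUND far more often than the other ETS1 regions, while GABPA was about as frequent in both. A JUND peak lay in 63 of the 295 shared regions, or 21.4% (95% Clopper-Pearson interval 16.8 to 26.5%), against 337 of 7888 others, or 4.27% (3.84 to 4.74%). Over all DU145 ETS1 regions the share was 4.89%. By Fisher's exact test (two-sided, with Benjamini-Hochberg adjustment over 18 tests, as throughout) the odds ratio was 6.08 (4.43 to 8.25, adjusted p = 2.99e-23). Shared regions were wider and stood earlier in the ETS1 list. Among the other regions, JUND was present at 10.3% of the widest of 5 equal groups by width and at 2.59 to 3.22% of the other 4, so width moves with the JUND share. Pooled within 25 groups by width and line order, the JUND odds ratio was 3.65 (2.63 to 5.05).

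GABPA was present at 24.7% of shared regions (19.9 to 30.1%, 73 of 295) and at 28.3% of the others (27.3 to 29.3%, 2229 of 7888), with 28.1% over all. No difference was detected in the lists as a whole (odds ratio 0.835, 0.629 to 1.10, exact test, adjusted p = 0.291). Within 5 equal groups by line order the shared regions held GABPA less often, with a pooled odds ratio of 0.434 (0.325 to 0.579).

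ELK4 peaks lay in 20 shared regions, 6.78% (4.19 to 10.3%), and in 3.12% of the others (2.75 to 3.53%), against 3.25% over all regions. The odds ratio was 2.26 (1.33 to 3.63, exact test, adjusted p = 0.00452). It was 1.35 within groups by width and line order (0.821 to 2.21) and 0.615 with peak centres within 200 bp, neither past the threshold. ELF1 was found in 6 shared regions, 2.03% (0.750 to 4.37%), and in 2.81% of the others (2.46 to 3.20%), with 2.79% over all, and no difference was detected (odds ratio 0.717, 0.258 to 1.60, exact test, adjusted p = 0.621).

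**Figure D1:**
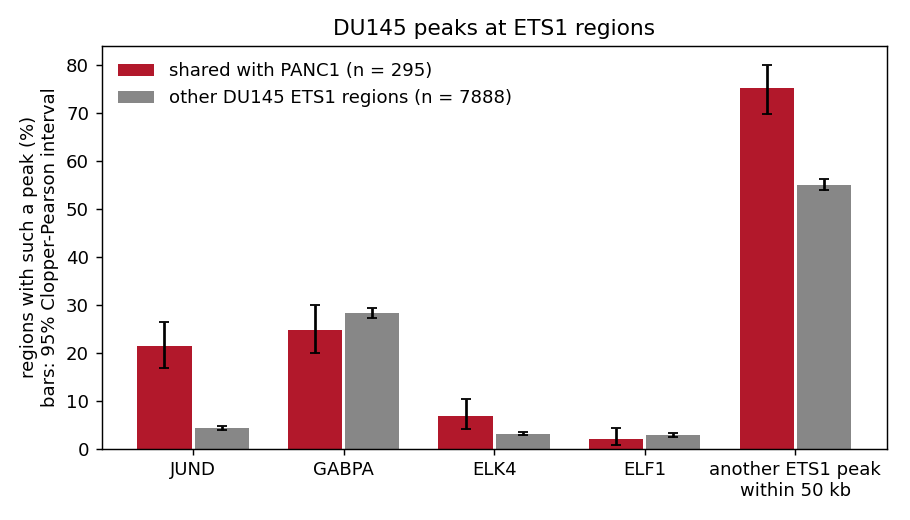
Share of ETS1 regions (percent, y axis) with a DU145 peak of each factor, or with another DU145 ETS1 peak within 50 kb, in regions shared with PANC1 (red) and other DU145 ETS1 regions (grey). Error bars are 95% Clopper-Pearson intervals; JUND stands at 21.4% against 4.27%, and the GABPA bars, 24.7% and 28.3%, have overlapping intervals.

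The JUND difference was larger in the early lines of the ETS1 list. The 8183 regions were put into 5 equal groups by their line in the first ETS1 list, whose meaning no source gives. Group 1 held 160 of the shared regions and groups 2 to 5 held 48, 37, 27 and 23. In group 1, JUND was present at 33.75% of shared regions (26.5 to 41.6%, 54 of 160) and at 5.89% of the others (4.74 to 7.22%, 87 of 1477). The odds ratio there was 8.12 (5.37 to 12.2, Fisher's exact test, adjusted p = 2.21e-21). In groups 2 to 5 together JUND was present at 6.67% (3.09 to 12.3%, 9 of 135) of shared regions and 3.90% of the others (3.44 to 4.40%, 250 of 6411). Here the exact test gave 1.76 (0.777 to 3.50, adjusted p = 0.170). The odds ratios of the early and later lines differed by a factor of 4.61 (exact test of equal odds ratios, adjusted p = 1.87e-04).

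Among the other regions the JUND share was 5.89% in group 1 and 3.90%, 3.69%, 4.10% and 3.91% in groups 2 to 5. Their group 1 interval (4.74 to 7.22%) lay above that of groups 2 to 5 together (3.44 to 4.40%). Among shared regions it was 33.75%, 14.6% and 5.41% in groups 1 to 3. No shared region of group 4 or 5 held JUND, which with 0 of 27 and 0 of 23 regions allows shares of up to 11.1% and 13.0% by a floor of 3 counts. Both limits lie above the share of the other regions, so a share lower than theirs was not detectable at these counts. Both lie below the 33.75% of shared regions in group 1.

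GABPA followed another course. Its share was lower in later groups in both sets, with 35.6%, 25% and 10.8% of shared regions in groups 1 to 3 and 0 regions in groups 4 and 5, against 53.2%, 41.0%, 25.5%, 15.0% and 8.74% of the other regions. By the same floor, 0 of 27 and 0 of 23 allow GABPA shares of up to 11.1% and 13.0%. The limit of group 5 lies above the 8.74% of the other regions, so a lower share was not detectable there. In group 1 the odds ratio was 0.487 (0.340 to 0.691, exact test, adjusted p = 1.25e-04) and in groups 2 to 5 it was 0.463 (0.255 to 0.786, adjusted p = 0.00464). The test of the difference between early and later lines gave an adjusted p of 1 (exact test, ratio of the odds ratios 1.05). GABPA was thus lower in shared regions in early and in later lines. Without regard to line order this did not show, and 160 of the 295 shared regions stood in group 1, where GABPA was most frequent in both sets.

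**Figure D2:**
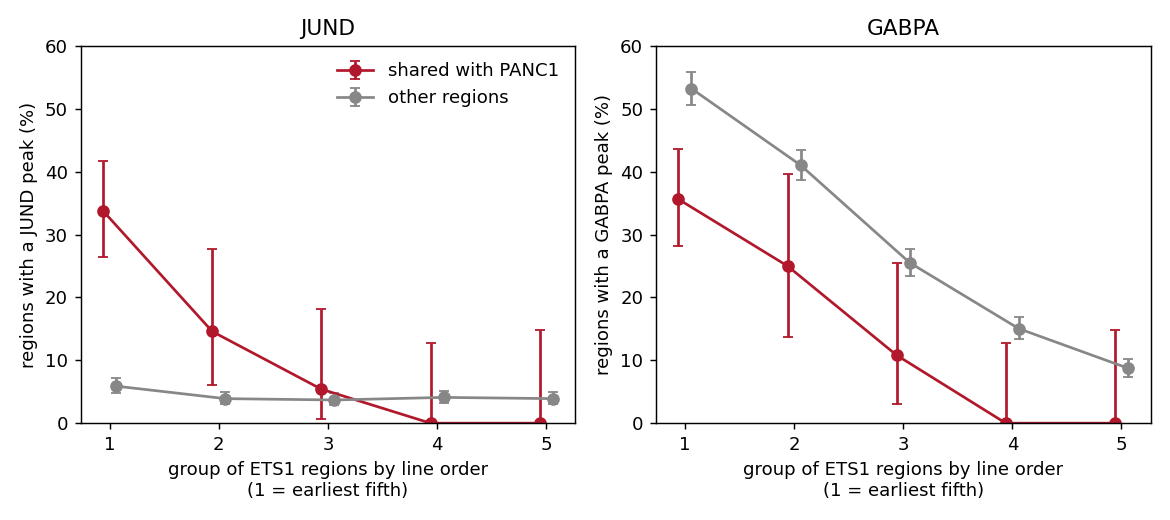
Share of regions (percent, y axis) with a JUND peak (left) or a GABPA peak (right) in 5 equal groups of DU145 ETS1 regions by line order (x axis), for regions shared with PANC1 (red) and the others (grey), with 95% Clopper-Pearson intervals. JUND intervals are separate in groups 1 and 2, at 33.75% against 5.89% and 14.6% against 3.90%. GABPA shares are lower in the shared regions in each group, with overlapping intervals in groups 2, 3 and 5.

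Split by both factors, the 295 shared regions fell into 4 classes. JUND without GABPA was present at 50, both at 13, GABPA without JUND at 60 and neither at 172. Shared regions with GABPA held JUND in 17.8% of cases (9.84 to 28.5%, 13 of 73) and those without it in 22.5% (17.2 to 28.6%, 50 of 222). The odds ratio was 0.746 (0.347 to 1.51, exact test, adjusted p = 0.603), so no association was detected, though the interval reaches well below 1. At equal line order the pooled odds ratio was 0.397 (0.195 to 0.809), and with regions under 5 kb apart merged it was 1.03. The other ETS1 regions had 62 with both, 275 with JUND alone, 2167 with GABPA alone and 5384 with neither, an odds ratio of 0.560 (0.416 to 0.744). The odds ratios of the shared and the other regions were not distinguished (ratio 1.33, exact test of equal odds ratios, adjusted p = 0.567).

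Shared regions with several of the lists were mostly regions with JUND. At least 2 of the 4 lists were present at 28 of 295, or 9.49% (6.40 to 13.4%), against 330 of 7888, or 4.18% (3.75 to 4.65%). Combinations that include JUND made up 6.10% of shared regions (3.66 to 9.47%, 18 of 295) and 0.951% of the others (0.749 to 1.19%, 75 of 7888). Those that lack it made up 3.39% of shared regions (1.64 to 6.15%, 10 of 295) and 3.23% of the others (2.85 to 3.65%, 255 of 7888), with overlapping intervals. No test was run on these counts. None of the 4 was present at 168 shared regions (56.9%) and at 5219 others (66.2%). ELK4 peaks mostly lay with another factor. Of the 20 shared regions with ELK4, 10 held JUND, 13 held GABPA, 5 held both and 2 held neither. The share with GABPA, 65% (40.8 to 84.6%), was close to the 63.4% (57.1 to 69.4%, 156 of 246) of other ETS1 regions with ELK4, while the share with JUND was 50% (27.2 to 72.8%) against 7.32% there (4.39 to 11.3%, 18 of 246).

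ELK4 was present at 15.9% of shared regions with JUND (7.88 to 27.3%, 10 of 63) and at 4.31% of those without (2.09 to 7.78%, 10 of 232). The exact test gave 4.16 as the odds ratio (1.47 to 11.8, adjusted p = 0.00559). That difference was not past the threshold within groups by line order (2.47), by width (2.43) or by both (1.83). By GABPA the ELK4 shares were 17.8% (9.84 to 28.5%, 13 of 73) and 3.15% (1.28 to 6.39%, 7 of 222), and the odds ratio was 6.60 (exact test, 2.33 to 20.5, adjusted p = 2.70e-04). This held within groups by width and line order (5.46, 1.79 to 16.7). In the other ETS1 regions ELK4 was also more frequent with GABPA, at 7.0% (5.97 to 8.14%, 156 of 2229) against 1.59% without it (1.28 to 1.95%, 90 of 5659), so the association is not particular to shared regions. With JUND it was at 5.34% (3.20 to 8.31%, 18 of 337) and without it at 3.02% (2.65 to 3.43%, 228 of 7551). Whether these associations differ in strength between shared and other regions was not tested. ELF1 met 4 of the 73 shared regions with GABPA and 2 of the 63 with JUND.

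Classes differed in width and in place on the list. Regions with JUND had a median width of 2365 bp (quartiles 1742.5 and 3810.5), those without 1682.5 bp (1287.5 and 2127.75), and the other DU145 ETS1 regions 1258 bp (985 and 1572). Regions with GABPA had a median of 1955 bp and those without 1753 bp. In the second ETS1 list, whose windows are of nearly equal width, the median line was 428 for shared regions with JUND and 1654.5 for those without. It was 570 with GABPA and 1741.5 without. For the class with neither factor it was 2869.5, and for the other DU145 ETS1 regions 4186.5. The classes overlap widely in both measures, and those with neither factor come nearest to the other DU145 regions. Where a comparison between classes lost its call within groups by width or line order, the pooled value stands beside it.

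**Figure D3:**
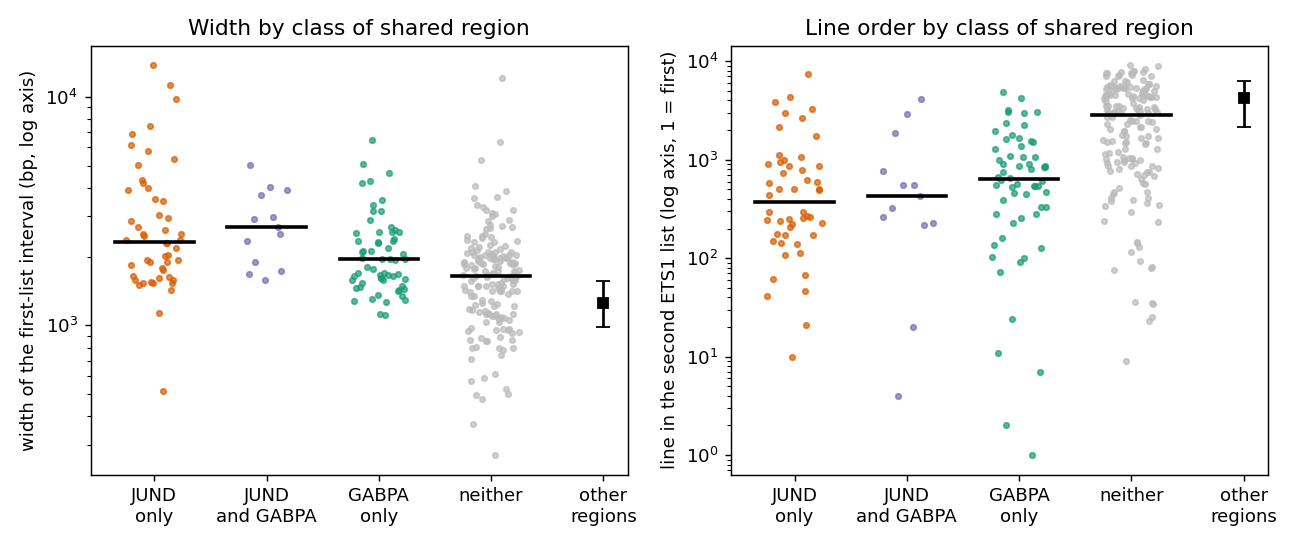
Width of the first-list interval in bp (left, log axis) and line in the second DU145 ETS1 list (right, log axis, 1 = first) for each shared region, as points by class of DU145 JUND and GABPA peak, with class medians as bars. Black squares and bars give the median and quartiles of the other DU145 ETS1 regions, 1258 bp and line 4186.5; regions with neither factor come closest to them.

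The 13 regions with both factors were few enough to describe singly. The earliest, chr11:62606285-62610185, stood on line 4 of the second ETS1 list and held the peak on line 1 of the JUND list, with an ELF1 peak as well. Its JUND centre lay 108.5 bp from the ETS1 centre and its GABPA centre 1958 bp away, so the 2 peaks sit at different places within 1 wide interval. The region chr1:149222899-149225247, on line 20, had the JUND peak on line 9 of its list, 26.5 bp from the ETS1 centre, and its GABPA centre 529.5 bp away. A different arrangement was seen at chr14:50099689-50102615, which held ELK4 and ELF1 too and was the single shared region with all 4 lists. There the JUND centre was 302.5 bp and the GABPA centre 166 bp from the ETS1 centre, and JUND and GABPA lay 136.5 bp apart. At chr19:59065514-59067186 they lay 36.5 bp apart, the closest of the 13.

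Across the 13, GABPA was the nearer to the ETS1 centre in 8 and JUND in 5. The distance between JUND and GABPA centres had a median of 528.5 bp and ranged from 36.5 to 2491 bp, the longest at chr16:2202629-2206665, a region with 2 PANC1 peaks and an ELK4 peak. The widest, chr19:13949292-13954305, spanned 5014 bp, and its JUND and GABPA centres were 1992.5 and 3741 bp from the ETS1 centre. A peak of each factor in the same region therefore often did not mean the same site. The remaining members were chr17:74731625-74734601, chr1:145381942-145383529, chr1:150550422-150553106, chr22:39915325-39917847, chr22:43010276-43012004, chr17:4850222-4853950 and chr7:100032788-100034679, with second-list lines between 262 and 1876.

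Among the 50 regions with JUND and no GABPA, the earliest was also the widest. It was chr11:65184646-65198352, of 13707 bp, on line 10 of the second list, with 2 JUND peaks and 10 further ETS1 peaks within 50 kb. The neighbouring chr11:65264430-65275740, of 11311 bp, held 3 JUND and 2 PANC1 peaks. The next widest was chr10:75668381-75678140, of 9760 bp, whose single JUND centre lay 3032.5 bp from the ETS1 centre. In the other pair of broad intervals the nearest JUND centre was 203 and 346.5 bp away.

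The other early members of the class placed JUND at varied distances. At chr1:148240715-148242367 the JUND centre was 59 bp and the PANC1 centre 28.5 bp from the DU145 ETS1 centre, and the JUND peak was on line 7 of its list. At chr1:149856504-149860511, with ELK4, the JUND centre was 122.5 bp away. At chr6:30708883-30713082 the JUND peak was on line 10 of its list, 865 bp from the DU145 ETS1 centre, and the PANC1 centre was 1539 bp away. The last of the 5 earliest, chr17:73779757-73781935, had JUND at 403.5 bp. Of these 5, 3 therefore had JUND and ETS1 centres over 200 bp apart.

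The 60 regions with GABPA and no JUND held the first lines of both ETS1 lists. These were chr19:4790855-4794005, on line 1 of the first list and line 2 of the second, and chr16:30932960-30936115, on line 2 and line 1. At chr19:4790855-4794005 the GABPA centre lay 4 bp and the PANC1 centre 60 bp from the ETS1 centre. At chr16:30932960-30936115 GABPA was 340.5 bp away and PANC1 40 bp. The ETS1 lines were early, but the GABPA peaks of these regions stood on lines 1454 and 627 of 2478 in their own list. At chr11:82996034-82998156 GABPA was 50 bp and PANC1 7 bp from the ETS1 centre, and at chr19:3184469-3187040 the distances were 103 and 48 bp. The widest of the class were chr19:13260202-13266660, of 6459 bp, chr7:5566083-5571178, of 5096 bp with 2 PANC1 peaks, and chr11:65624114-65628740, of 4627 bp.

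The class with neither factor was the largest, at 172 of 295, and was not confined to late lines. Its earliest regions were chr12:6960229-6962729, on line 9 of the second list, chr18:77438622-77440649, on line 23, and chr12:49245077-49246998, on line 25. In these 3 the PANC1 centre lay 22, 30.5 and 9 bp from the DU145 ETS1 centre. At chr12:88535105-88536703 it was 0.5 bp and at chr19:54617947-54619820 45 bp. The widest was chr17:27044032-27056104, of 12073 bp, which held no peak of the other 4 lists. The next were chr12:76420422-76426770, of 6349 bp, and chr1:28831868-28837159, of 5292 bp with 2 PANC1 peaks. Early ETS1 lines without GABPA or JUND thus included sites at which the 2 cell lines placed ETS1 within 50 bp of each other.

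ELF1 was present at 6 shared regions. Besides chr11:62606285-62610185 and chr14:50099689-50102615 they were chr11:808399-811088 and chr17:79632885-79634550, with GABPA, and chr10:131908098-131910106 and chr2:241499407-241500850, with neither JUND nor GABPA. In the pair with GABPA alone, the GABPA centres lay 0.5 and 83.5 bp from the ETS1 centre.

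The position of the peaks inside the shared regions was then compared. The PANC1 window overlapped the second-list DU145 window itself in 272 of 295 regions, and in 23 it lay elsewhere in the wider first-list interval. The PANC1 centre was a median of 128 bp from the DU145 centre (quartiles 47.5 and 241.25 bp), with 128 regions within 100 bp and 192 within 200 bp. Most shared regions thus had the ETS1 windows of both lines on the same site at the scale of these windows, whose median width was 497 bp in both lists. The overlap of PANC1 with the DU145 lists is what the rule asked for, so these distances are a description.

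GABPA lay closer to the DU145 ETS1 centre than JUND did. In shared regions the GABPA centre was a median of 85.5 bp from the DU145 ETS1 centre (quartiles 47 and 207.5, n = 73), and the JUND centre 203 bp (72 and 459.5, n = 63). Among regions with only JUND of the 2 factors, 52.0% had it within 200 bp (37.4 to 66.3%, 26 of 50), against 81.7% of those with only GABPA (69.6 to 90.5%, 49 of 60). The odds ratio was 0.247 (0.0931 to 0.618, Fisher's exact test, adjusted p = 0.00273). JUND intervals were wider than GABPA windows, with list medians of 696.5 and 497 bp, and the part of that width in the distances was not tested. At equal width and line order the odds ratio was 0.445 (0.160 to 1.24), no longer past the threshold.

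Of all 63 shared regions with JUND, 49.2% (36.4 to 62.1%) had its centre within 200 bp of the ETS1 centre. Of all 73 with GABPA, 74.0% (62.4 to 83.5%) did. The other ETS1 regions showed the same order on this count. There, 58.8% of 337 JUND regions (53.3 to 64.1%) and 85.3% of 2229 GABPA regions (83.8 to 86.8%) were within 200 bp. Measured from the PANC1 ETS1 centre of the shared regions, the intervals overlapped. Within 200 bp of it lay JUND in 46.0% (33.4 to 59.1%) and GABPA in 53.4% (41.4 to 65.2%). Within 100 bp these shares were 30.2% (19.2 to 43.0%) and 31.5% (21.1 to 43.4%). The JUND peak overlapped the PANC1 window itself in 49 of 63 shared regions (77.8%, 65.5 to 87.3%), and GABPA did so in 62 of 73 (84.9%, 74.6 to 92.2%). For ELK4 the count was 15 of 20 and for ELF1 5 of 6. In the other 14 regions with JUND, the DU145 JUND peak and the PANC1 ETS1 peak fell in the same region without touching.

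**Figure D4:**
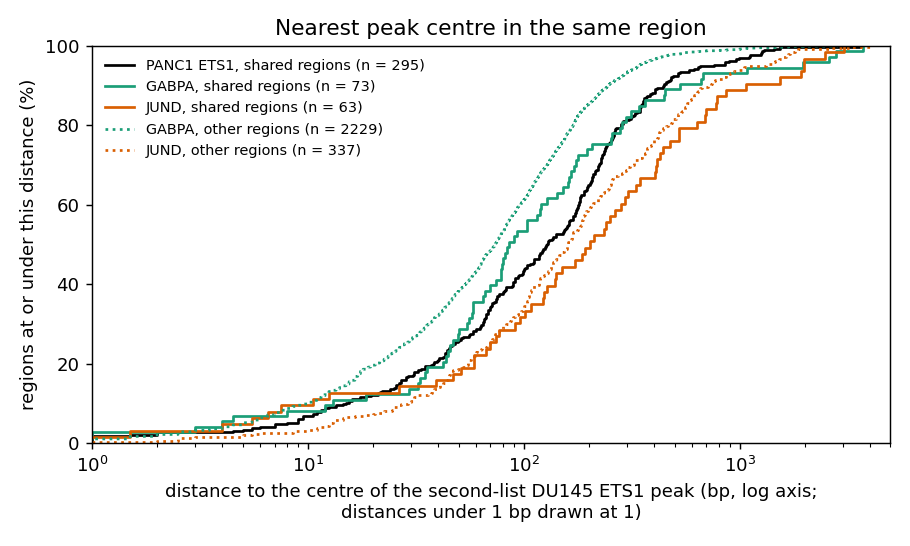
Cumulative share of regions (percent, y axis) by distance in bp (x axis, log scale) from the centre of the second-list DU145 ETS1 peak to the nearest PANC1 ETS1 (black), GABPA (green) or JUND (orange) centre in the region, for shared regions (solid) and other DU145 ETS1 regions (dotted). GABPA lies nearer than JUND in both sets, with medians of 85.5 and 203 bp in the shared regions.

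The JUND peaks at shared regions differed from other JUND peaks in their own list. There were 69 of them, with a median width of 924 bp (quartiles 652 and 1228) and a median line of 401. The 341 JUND peaks at other ETS1 regions had medians of 731 bp and line 638, and the 898 outside ETS1 regions 673.5 bp and line 683. The 73 GABPA peaks at shared regions had a median line of 1104, against 1178.5 for the 2234 at other ETS1 regions and 1943 for the 171 outside. By these medians, JUND peaks at shared regions were the wider and earlier ones of their list, while GABPA peaks stood at similar lines in both sets of ETS1 regions. These are descriptions without a test.

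Shared regions that held no JUND or no GABPA peak more often had one within 50 kb, by intervals that do not overlap, and at 10 kb this was so for JUND. Of the 232 shared regions without a JUND peak, 9.48% (6.04 to 14.0%, 22 regions) had one within 10 kb and 22.4% (17.2 to 28.3%) within 50 kb. Of the 7545 others on a chromosome with JUND peaks, 3.53% (3.12 to 3.97%) and 12.7% (11.9 to 13.4%) did. For GABPA the 10 kb shares were 4.05% of 222 shared regions (1.87 to 7.56%) and 4.75% of 5659 others (4.21 to 5.34%), with overlapping intervals. The 50 kb shares for GABPA were 29.7% (23.8 to 36.2%) and 22.6% (21.5 to 23.7%). No test was run on these shares. The GABPA intervals at 50 kb nearly touch. Neighbouring regions can have the same nearby peak and are not independent counts, which these intervals do not allow for.

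Shared regions had other ETS1 peaks nearby more often than the rest. Another second-list DU145 ETS1 peak was found within 50 kb of 75.3% of them (69.9 to 80.1%, 222 of 295), against 55.1% of the others (54.0 to 56.2%, 4347 of 7888) and 55.8% over all. The odds ratio was 2.48 (1.89 to 3.29, Fisher's exact test, adjusted p = 1.42e-11), and it was 2.16 (1.64 to 2.84) within groups by width and line order. The peaks counted come from a list that the rule used, and members near each other count as each other's neighbours. The test therefore describes these lists and is no separate support for the set. With JUND the share was 87.3% (76.5 to 94.4%, 55 of 63) and without it 72.0% (65.7 to 77.7%, 167 of 232). The exact test gave an odds ratio of 2.67 (1.18 to 6.85, adjusted p = 0.0215). This last difference was not past the threshold without chromosome 6 (2.40), within groups by width (2.19) or with the second ETS1 list alone (1.68). Of shared regions with GABPA 72.6% (60.9 to 82.4%, 53 of 73) had such a neighbour and of those without it 76.1% (70.0 to 81.6%, 169 of 222), with no difference detected (0.832, 0.441 to 1.61, exact test, adjusted p = 0.603). Other ETS1 regions with JUND also had neighbours often, at 77.7% (72.9 to 82.1%) against 54.1% without JUND (53.0 to 55.2%).

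By chromosome, the shared regions were most numerous on chromosome 1 with 40, chromosome 19 with 37, chromosome 6 with 34, chromosome 17 with 28, chromosome 11 with 22 and chromosome 12 with 21. The PANC1 peaks that the rule used set these counts, so they carry no test. The 6 chromosomes took 13.6%, 12.5%, 11.5%, 9.49%, 7.46% and 7.12% of shared regions, against 10.1%, 8.06%, 5.10%, 7.02%, 5.17% and 5.36% of the others. Chromosomes 4 and 13 held none, which allows up to 1.02% each, against 2.90% and 1.51% of the others.

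JUND and GABPA counts varied between them. Chromosome 1 had JUND at 16 of its 40 shared regions and GABPA at 7, chromosome 17 had 10 and 6 of 28, and chromosome 6 had 9 and 4 of 34. Chromosome 19 showed the opposite order, with JUND at 2 of 37 and GABPA at 15. On chromosome 19 these shares, 5.41% for JUND and 40.5% for GABPA, lay near the 3.93% and 34.3% of the other ETS1 regions there. On chromosome 1 JUND was at 40% of shared regions against 4.90% of the others, and GABPA at 17.5% against 27.4%. On chromosomes 17 and 6 JUND was at 35.7% and 26.5% of shared regions, against 4.87% and 5.72% of the others. Chromosomes 11 and 12 had JUND at 6 of 22 and 5 of 21, and GABPA at 8 and 4. These chromosomes are the 6 with the most members, and the contrast between chromosomes 1 and 19 was noticed in the counts and not tested.

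**Figure D5:**
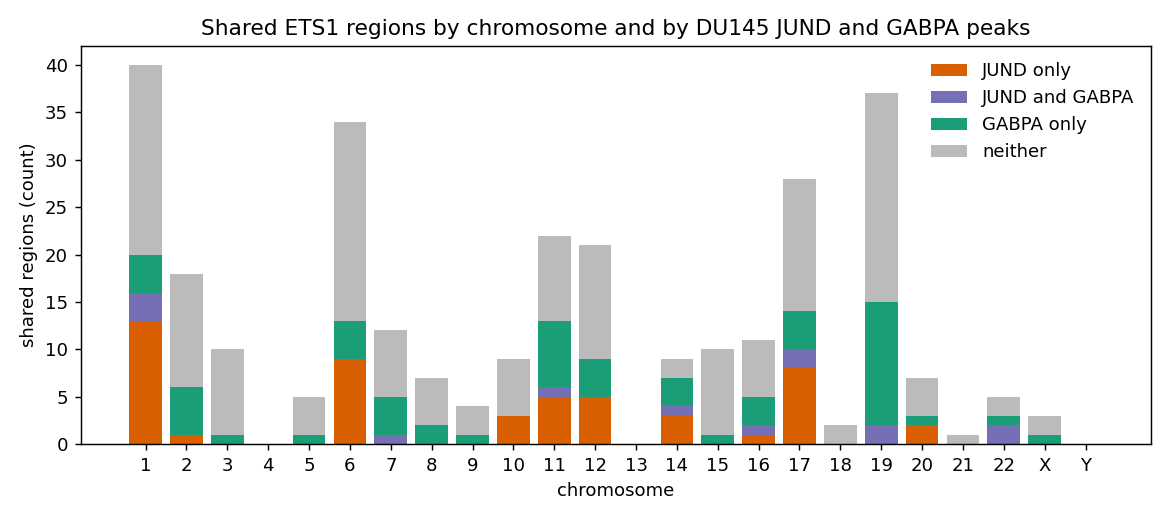
Number of ETS1 regions shared by DU145 and PANC1 (y axis) on each chromosome (x axis), stacked by class of DU145 JUND and GABPA peak. Chromosome 1 holds 16 regions with JUND among 40 and chromosome 19 holds 2 among 37; chromosomes 4 and 13 hold no shared region.

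Some shared regions came in groups. With gaps under 100 kb, 91 of the 295 (30.8%) fell into 33 stretches of at least 2, and 12 stretches held 3 or more. No such share was taken for the other ETS1 regions. The ETS1 lists that the rule used set these counts, so they are a description. The fullest was chr6:26026159-26313638, with 11 shared regions, of which 4 had JUND and 0 had GABPA, a count that allows a share of up to 27.3%. On chr6:27774815-27871206 there were 5 with neither factor, and a count of 0 in 5 allows up to 60% for each. On chr19:39880928-39936799 there were also 5, of which 4 had GABPA and 0 had JUND, which allows up to 60%. A stretch of 4 on chr17:8022796-8127240 had JUND at 1 and GABPA at 1. Neighbouring members share their surroundings, so the regions of a stretch are not independent counts.

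The rule's limit of 1 bp with a PANC1 peak did not decide the membership. Its limit with the second DU145 list was not examined in this way. With at least 50% of the shorter interval required for every list, there were 289 shared regions among 8054. Membership did depend on the wide first-list intervals. With 500 bp windows about every centre there were 239 among 7732, and with peak centres within 200 bp 124 among 5902. The smallest overlaps of a shared region with its PANC1 peak were 176 bp at chr6:26199000-26199743, 177 bp at chr6:52860149-52860625 and 188 bp at chr1:147993849-147994220. The nearest regions left outside were chr16:69139570-69140877, chr19:54480295-54481454 and chr11:839585-840081, at gaps of 214, 331 and 391 bp from a PANC1 peak. All 6 of these held neither JUND nor GABPA. No region lay within 100 bp of the limit on either side, and 7 of the others were under 1 kb from a PANC1 peak. In all, 302 of the 409 PANC1 peaks fell in the shared regions, of which 288 held 1 and 7 held 2.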

How the data were processed

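The deposited files are 7 peak lists with the chromosome, start and end of each interval. The authors' coordinates are on hg19, per the labels. Bowtie2 2.0.6 is listed in the submitters' processing notes without its role. Not given in the sources used here are how peaks were called, with which cutoff and background, and from how many reads. The DU145 ETS1 sample has 2 lists and was counted as 1 sample. Starts are given counted from 1. A region is a peak of the first DU145 ETS1 list that meets the second, and intervals that share at least 1 bp were taken to overlap.

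Intervals of shares are 95% Clopper-Pearson limits and reflect counting error alone. Fisher's exact test (two-sided, conditional odds ratios) was used for shares, and Zelen's exact test for pairs of odds ratios. Benjamini-Hochberg adjustment covered 18 tests with a threshold of 0.05, and pooled values are Mantel-Haenszel odds ratios with approximate intervals. In each other setting the adjustment was made anew over the tests run there, which were fewer within groups. Distances run between interval centres. Python 3.11.15, NumPy 2.4.6, SciPy 1.17.1, statsmodels 0.14.6 and Matplotlib 3.10.9 were used, and the steps were tested on simulated data.

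Members, tests and settings were chosen with earlier results of these data known. Of the 18 tests, 13 were added after values had been seen, as were 3 of the 11 settings. Named regions are the 5 earliest by second-list line and the 3 widest of each class, all with both factors or ELF1, and those nearest the rule's limit; 1 of them is not printed. Comparisons by gene start, gene list or sequence motif were not run, since no hg19 annotation or genome was used here.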

Additional observations from a re-analysis of the deposited data

How the results depend on the processing

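Values are odds ratios, and each setting changes 1 choice. The JUND difference kept its direction and stayed past the threshold in all 9 settings run, and the neighbour difference between shared and other regions in all 11. The neighbour peaks come from a list that the rule used, so that outcome describes these lists and is no separate support. The GABPA difference of 0.835 passed the threshold within groups by line order (0.434) and by width and line order (0.521), and JUND by GABPA did so in the same settings (0.397 and 0.345), while merging regions under 5 kb apart gave 1.03. For ELK4 in shared regions the value was 1.59 with 500 bp windows, 1.55 within groups by width, 1.50 by line order and 1.35 by both, none past the threshold. For ELK4 by JUND it was 2.43, 2.47 and 1.83 in the last 3 of these. The neighbour difference by JUND was not past the threshold with 500 bp windows (1.40), with the second list alone (1.68), without chromosome 6 (2.40), within groups by width (2.19) or by width and line order (2.23), or with merging (2.12). By GABPA it turned to 1.73 with neighbours within 20 kb and 1.03 within 100 kb. The centre comparison of JUND and GABPA lost its call within groups by width and line order (0.445).

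Peak centres within 200 bp left 124 shared regions. There, ELK4 turned to 0.615, the neighbour difference by JUND to 0.863, the ratio of the JUND by GABPA odds ratios to 0.442 and JUND in later lines to 0.946. ELK4 by JUND (7.49), ELK4 by GABPA (3.82), the centre comparison (0) and the ratio of JUND odds ratios between early and later lines (6.58) were no longer past the threshold, with few regions left. The ratio of GABPA odds ratios between early and later lines was 0.961 with the second list alone. The cause of these changes was not tested. No p-value here covers variation between cultures, since each factor has 1 sample, and the unknown read depth limits what the absence of a peak can show. Tests by gene start and by motif were not run. No paired analysis was possible because each group has 1 sample.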
